A study of Mus musculus with 2 samples.

Results

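The mitochondrial genome transcripts are the 37 rows, of 50508 in the table, whose symbol begins with mt-. They comprise 13 protein-coding, 22 transfer RNA (tRNA) and 2 ribosomal RNA (rRNA) genes, and each has the length of the GENCODE M21 gene of that symbol. They were measured in E14, a line of mouse embryonic stem cells derived from strain 129/Ola, at passages 15 to 18. Both groups were kept on gelatin in medium with 15% serum and 1000 U/ml LIF, a cytokine that keeps mouse stem cells undifferentiated, and were harvested 72 h after lipid transfection, one with a scramble siRNA and the other with an siRNA against Mettl8. Triplicates are mentioned in the series' design text, whereas labels and table give 1 library per group; whether a library pools cultures is not stated. No value below has a replicate error, no test between the groups was possible, and no p-value is given. Intervals are 95% intervals of the read counts and cover counting error only.

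The mitochondrial genome is a small circle of DNA that is read from both strands into long precursors. These are cut, mostly at the tRNAs that lie between the other genes, into messenger, ribosomal and transfer RNAs. The proteins are core subunits of the respiratory chain and of ATP synthase, and the RNAs serve the organelle's own ribosomes. METTL8 places 3-methylcytidine in the anticodon loop of the mitochondrial threonine tRNA and of the serine tRNA that reads UCN codons.

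The genes for these substrates are mt-Tt and mt-Ts1. Their sequences are shown because they hold the base that the enzyme of the targeted gene is known to modify, and mt-Ts2, the other serine tRNA gene, is shown for comparison. Capitals in mt-Tt and mt-Ts1 mark the 7 bases of the anticodon loop, placed by the anticodon (TGT and TGA). The first capital is C in both, the base known to be methylated. In mt-Ts2 the capitals mark a later GCT and not the anticodon loop. Its loop is the earlier ctgctaa, between the largely complementary stretches gcaagaa and ttcatgc. That loop also begins with C, so this base does not set mt-Ts2 apart from the substrates. Sequences are GENCODE M21 transcripts (GRCm38), read on the gene's own strand. mt-Tt lies on the plus strand at chrM:15289-15355, mt-Ts1 on the minus strand at chrM:6870-6938 and mt-Ts2 on the plus strand at chrM:11613-11671.
mt-Tt: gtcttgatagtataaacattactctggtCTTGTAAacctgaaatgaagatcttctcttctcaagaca
mt-Ts1: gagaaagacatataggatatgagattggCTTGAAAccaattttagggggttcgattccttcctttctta
mt-Ts2: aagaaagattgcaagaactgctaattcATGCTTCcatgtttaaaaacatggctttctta

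Reads were rebuilt from the steps of the FPKM values, which gave FPKM denominators of 28.5 M reads (library labelled scramble siRNA) and 27.8 M reads (library labelled Mettl8 siRNA). Rows of the table held 22.2 and 21.4 M of them. Mettl8 itself was at 0.67 FPKM with the scramble label and at 100.3 FPKM with the Mettl8 siRNA label, which goes against the latter. Libraries are therefore named by their labels only, and paired values give the library labelled scramble siRNA first. Levels carry exact Poisson intervals, and shares and ratios exact Clopper-Pearson intervals. All 8 stem cell markers on the list were at 17.5 FPKM or more in both libraries, and all 8 feeder fibroblast and 6 primitive endoderm markers were below 1 FPKM. The summed levels of the fibroblast list were 0.85 and 0.88 FPKM and those of the endoderm list 0.97 and 1.38 FPKM. In bulk RNA, fewer mitochondrial genomes per cell and less RNA per genome cannot be told apart.

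Mitochondrial genes took 13.36% (13.34 to 13.37) of the reads in the table in the library labelled scramble siRNA and 13.53% (13.52 to 13.54) in the library labelled Mettl8 siRNA. One gene made up nearly all of this share. mt-Rnr2, the RNA of the large ribosomal subunit, held 96.1% and 96.3% of all mitochondrial reads. The 13 protein-coding genes together took 0.431% (0.429 to 0.434) and 0.417% (0.414 to 0.420) of the reads in the table, and the 22 tRNA genes 0.0235% (0.0229 to 0.0242) and 0.0245% (0.0239 to 0.0252). Without mt-Rnr2 the other 36 genes amounted to 0.519% and 0.501%.

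The ribosomal RNAs, which lie side by side at the start of the annotated sequence, had very unequal levels. mt-Rnr2 had a level of 63331 FPKM (63258 to 63405) and 63411 FPKM (63337 to 63486), in both libraries the second highest level of the table. mt-Rnr1, the RNA of the small ribosomal subunit, was 522 FPKM (514 to 531) and 481 FPKM (473 to 489). Per length, mt-Rnr2 thus exceeded mt-Rnr1 121-fold in the first library and 132-fold in the second. For mt-Rnr2 the direction depended on the total used. Its FPKM ratio was 1.00 (0.9996 to 1.003), its share of the reads in the table was 12.84% (12.82 to 12.85) and 13.03% (13.01 to 13.04), and its ratio was 0.990 (0.988 to 0.992) with the median log2 ratio of all genes set to 0. On the FPKM scale mt-Rnr1 was lower in the library labelled Mettl8 siRNA, at a ratio of 0.921 (0.899 to 0.943). mt-Rnr1 was also below the protein-coding gene mt-Co1, which exceeded it 2.30-fold in each library. The labels name total RNA and do not say whether poly(A) RNA was selected or rRNA removed, so the part of library preparation in these levels was not tested.

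Levels of the protein-coding genes fell into separate ranges by their place on the genome. Outside the stretch from within mt-Co1 to within mt-Nd4, 5 genes lay between 102 and 754 FPKM. Those wholly inside it, 6 genes, lay between 0.36 and 3.0 FPKM, and the ranges did not overlap in either library. mt-Co1 and mt-Nd4, at its edges, were at 1106 to 1200.4 FPKM and at 61.8 to 64.7 FPKM.

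**Figure D1:**
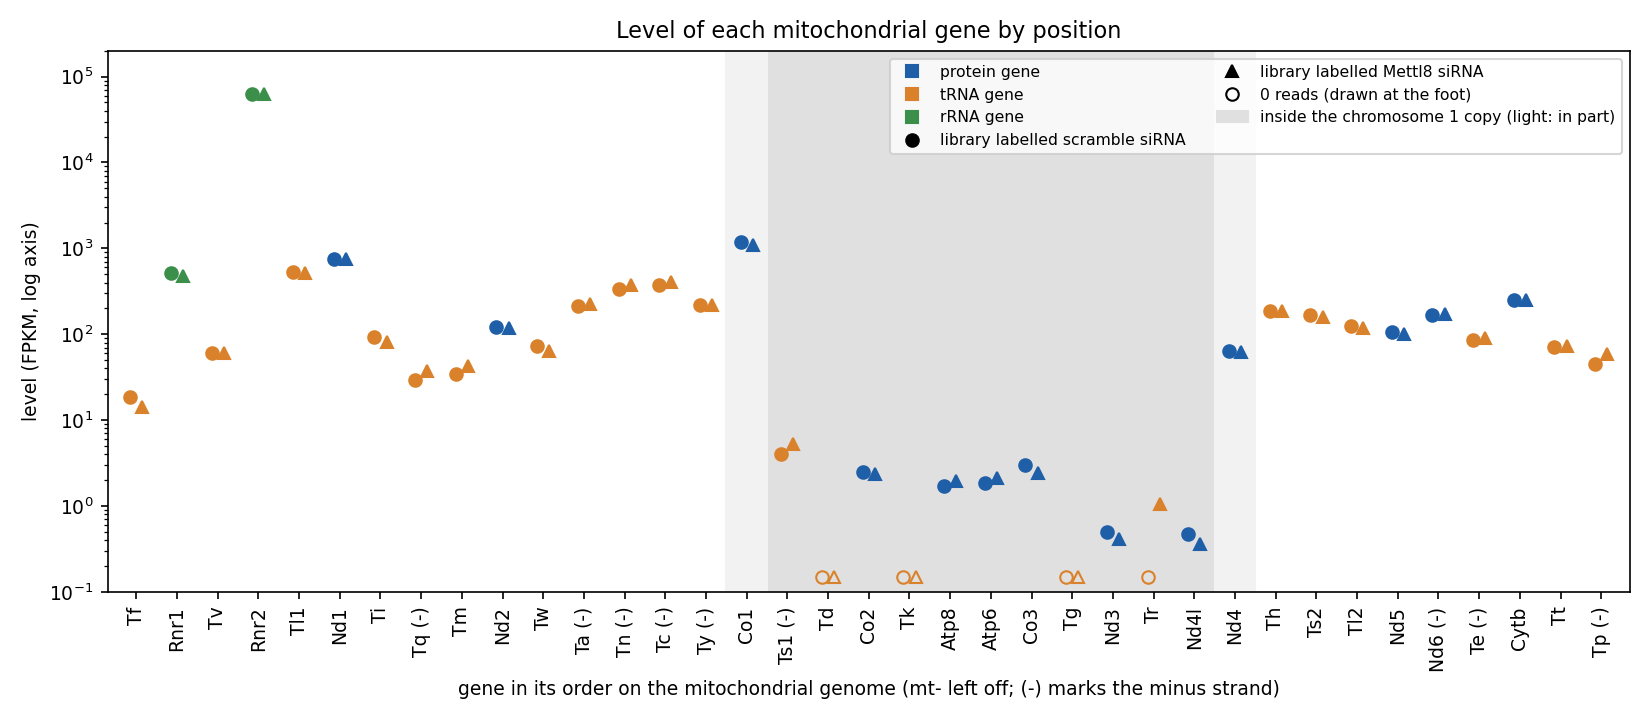
Level in FPKM (log axis) of the 37 mitochondrial genes in their order on the genome, circles for the library labelled scramble siRNA and triangles for the library labelled Mettl8 siRNA, coloured by class. Open symbols at the foot stand for 0 reads. The 11 genes in the shaded stretch lie at or below 5.21 FPKM and the 24 genes outside it at or above 14.3 FPKM.

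Genes of complex I, which takes electrons from NADH, ranged widely. mt-Nd1 was the highest of them at 751 and 754 FPKM, sixth and seventh among all protein-coding rows of the table. mt-Nd6, the only protein-coding gene on the minus strand, was 168 and 174 FPKM; its last 14 bases overlap the plus-strand gene mt-Nd5. mt-Nd2 followed at 121 and 118 FPKM and mt-Nd5 at 108 and 102 FPKM. mt-Nd1 was thus 6.21-fold and 6.38-fold above mt-Nd2, from which it is separated only by tRNA genes. mt-Nd4 was 64.7 FPKM (62.2 to 67.3) and 61.8 FPKM (59.3 to 64.3). mt-Nd3 was 0.50 FPKM (0.164 to 1.18) and 0.41 FPKM (0.113 to 1.06), from 5 and 4 reads. mt-Nd4l was 0.47 FPKM (0.129 to 1.21) and 0.36 FPKM (0.0749 to 1.06), from 4 and 3 reads. The next gene, mt-Nd4, overlaps mt-Nd4l by 7 bases and exceeded it 138-fold and 172-fold.

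mt-Cytb, the only mitochondrially encoded subunit of complex III, was 253 FPKM (248 to 259) and 253 FPKM (247 to 258). Of complex IV, cytochrome c oxidase, mt-Co1 was the highest protein-coding mitochondrial gene at 1200.4 FPKM (1190.1 to 1211) and 1106 FPKM (1096 to 1116), the fifth highest of all protein-coding rows in each library. Its partner subunits were far lower. mt-Co2 was 2.52 FPKM (1.86 to 3.33) and 2.36 FPKM (1.73 to 3.16), and mt-Co3 3.0 FPKM (2.33 to 3.81) and 2.43 FPKM (1.82 to 3.18). The ATP synthase (complex V) subunits, whose genes overlap by 43 bases, were as low. mt-Atp8 was 1.72 FPKM (0.826 to 3.17) and 1.94 FPKM (0.968 to 3.47), and mt-Atp6 1.86 FPKM (1.30 to 2.57) and 2.11 FPKM (1.51 to 2.88). Of the reads of the 13 genes, complex IV took 55.2% and 53.4%, complex I 36.2% and 37.6%, complex III 8.60% and 9.01% and complex V 0.0480% and 0.0571%. mt-Co1 alone held 55.1% and 53.2%. The complex V genes, mt-Co2, mt-Co3, mt-Nd3 and mt-Nd4l lie wholly in the stretch of low levels. Levels there are uncertain, as set out below, so these shares need not be the make-up of the RNA by complex.

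The stretch of low levels coincides with annotated copies on a nuclear chromosome. On the minus strand of chromosome 1, GENCODE M21 (GRCm38) annotates 7 unprocessed pseudogenes at chr1:24611535-24616197, a span of 4663 bases. Aligned without gaps, they match chrM:6381-11042, a span of 4662 bases, in the same order. Of 4149 aligned bases 7 differ, and 5 of the 7 copies do not differ at all from the mitochondrial gene: Gm28661 (mt-Co2), Gm10925 (mt-Atp6), Gm28437 (mt-Co3), Gm10222 (mt-Nd4l) and Gm28439 (the first 876 bases of mt-Nd4). Gm29216 matches the end of mt-Co1, with 6 differences, from T1056A to A1066T, counted from the first base of mt-Co1, mitochondrial base first. Gm28438 (mt-Nd3) differs by 1 base, T3C, counted likewise. No copy is annotated for mt-Atp8 and for the tRNA genes of the stretch, which lie between copied neighbours.

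The edge inside mt-Nd4 is shown because the deposited level changes between the genes on its sides. Capitals mark the last 30 bases inside the copy Gm28439, at chrM:11013-11072, plus strand. The first 40 bases of mt-Nd3 (chrM:9459-9498, plus strand) and of Gm28438 (chr1:24613080-24613119, minus strand) are shown because they hold the single difference, in capitals.
mt-Nd4: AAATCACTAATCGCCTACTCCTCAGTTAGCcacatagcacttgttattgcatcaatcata
mt-Nd3: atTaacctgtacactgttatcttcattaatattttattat
Gm28438: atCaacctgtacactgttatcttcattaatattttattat

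Every 50-base window of the 15 protein-coding and rRNA genes was looked up, on both strands, in all annotated transcripts of nuclear genes. The share of windows found there was 100% for mt-Co2, 99.9% for mt-Co3, 99.5% for mt-Atp6, 98.8% for mt-Nd4l and 98.0% for mt-Nd3, the genes at 0.36 to 3.0 FPKM. It was 62.2% for mt-Nd4 and 51.1% for mt-Co1, and 8.19% or less for the others, among them mt-Rnr1 at 0%. mt-Atp8, also at 0% because no copy of it is annotated, was low all the same. The starts of mt-Co2 and mt-Atp6, on its sides, are 914 bases apart, as are those of their copies on chromosome 1. The unannotated sequence between those copies was not compared. Divided by the share of windows without a nuclear match, the level of mt-Nd4 was 171 and 164 FPKM and that of mt-Co1 2457 and 2264 FPKM. How reads that match several places were counted is not given in the sources used here, so the part of the copies in these levels was not tested, and the levels of genes in the stretch are uncertain.

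**Figure D2:**
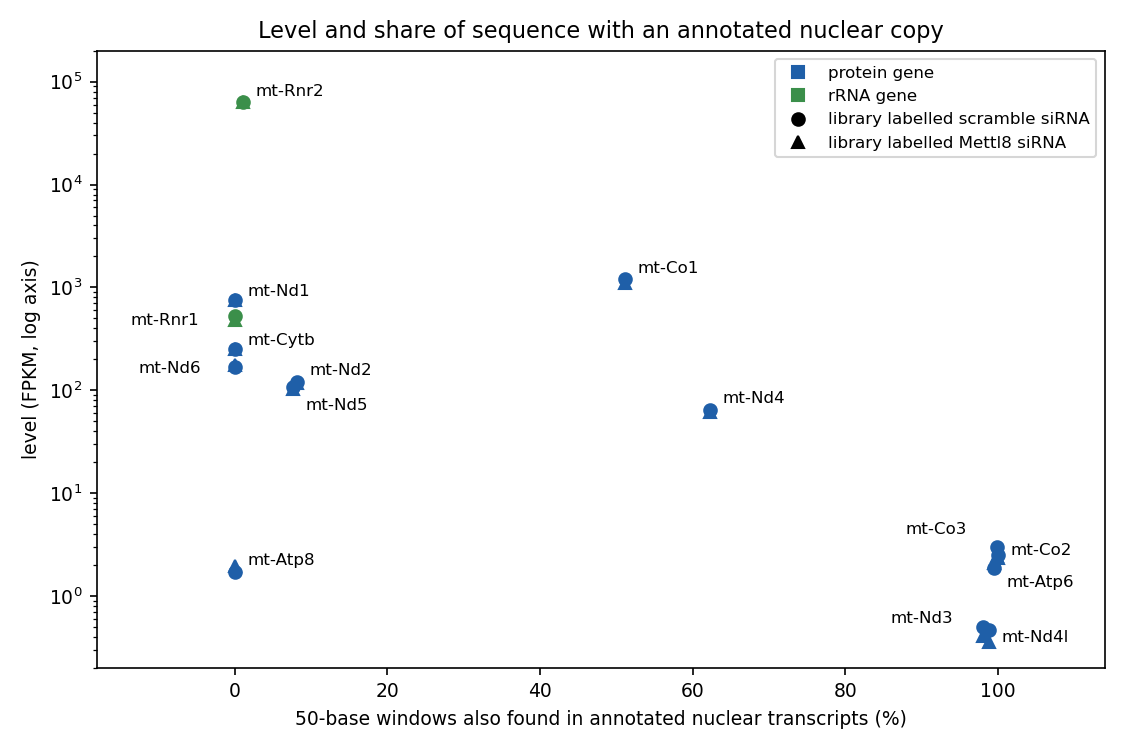
Level in FPKM (log axis) against the share of 50-base windows also found in annotated nuclear transcripts, for 13 protein-coding and 2 rRNA genes, circles for the scramble siRNA label and triangles for the Mettl8 siRNA label. The 5 genes at 98.0% or more lie at or below 3.0 FPKM. The other low gene is mt-Atp8, at 0% with no annotated copy.

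The copies had rows of their own in the table. Gm28438 was 19.2 FPKM (188 reads) and 16.7 FPKM (160 reads), 38.3-fold and 40.7-fold above mt-Nd3. Both sequences shown are those of the reference assembly. Which base mt-Nd3 of these cells holds at the single difference was not tested, so how reads divide between the gene and Gm28438 is uncertain. Of the 5 copies without a difference, 3 were at 0.694 to 1.53 times the level of their mitochondrial genes: Gm28661 was 1.75 and 1.79 FPKM, Gm10925 2.18 and 1.70 FPKM, and Gm28437 3.81 and 3.72 FPKM. Gm10222 was 1.19 and 2.69 FPKM, from 10 and 22 reads, which is 2.53-fold and 7.47-fold above mt-Nd4l. At the edges, Gm28439 was 0.12 and 0.16 FPKM and Gm29216 1.00 and 1.10 FPKM, far below mt-Nd4 and mt-Co1. Gm28438 had the most reads of the 7 copies, whereas Gm29216, which also differs from its gene, had 14 and 15 reads. The differences of Gm29216 all lie at bases 1056 to 1066 of mt-Co1, at one end of its match to bases 1054 to 1545. Of the nuclear genes elsewhere that share a 50-base window, those with a mean of at least 1 FPKM were Gm13340 (1.21 and 0.91 FPKM) and Gm13341 (1.15 and 1.12 FPKM) on chromosome 2 and Gm20594 (1.49 and 1.76 FPKM) on chromosome 6.

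**Figure D3:**
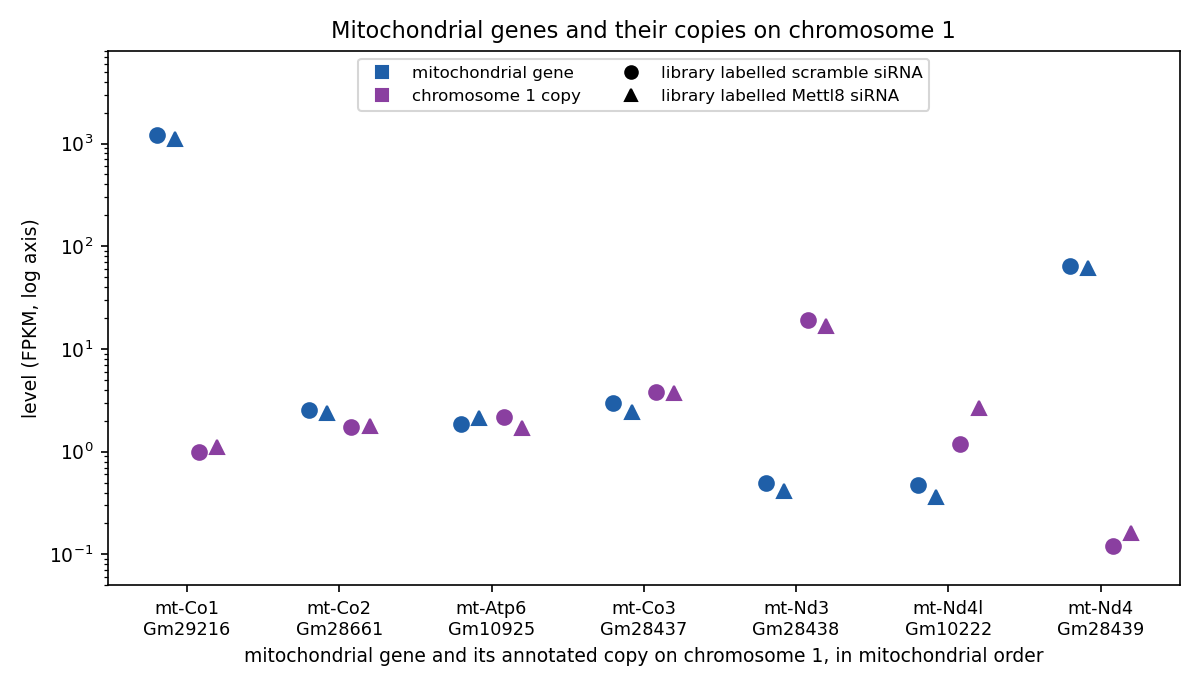
Level in FPKM (log axis) of 7 mitochondrial genes and of their annotated copies on chromosome 1, circles for the library labelled scramble siRNA and triangles for the library labelled Mettl8 siRNA. Gm28438 lies at 19.2 and 16.7 FPKM, above mt-Nd3 at 0.50 and 0.41 FPKM, while mt-Co1 and mt-Nd4 lie far above their copies.

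Transfer RNA genes, 59 to 75 bases long, spanned 0 to 529.8 FPKM. Reads over a tRNA gene may come from the mature tRNA or from a precursor, and these cannot be told apart here. Of the 22 genes, 17 lie outside the stretch, between 14.3 and 529.8 FPKM, with medians of 93.2 and 89.6 FPKM. The highest was mt-Tl1, a leucine tRNA gene, at 529.8 FPKM (499 to 562) and 522 FPKM (492 to 554); it directly follows mt-Rnr2 and precedes mt-Nd1. Next came the adjoining minus-strand genes mt-Tc, mt-Tn, mt-Ty and mt-Ta, for cysteine, asparagine, tyrosine and alanine, which lie between mt-Nd2 and mt-Co1. mt-Tc was 373 and 403 FPKM and mt-Tn 335 and 374 FPKM, with mt-Ty at 217 and 219 FPKM and mt-Ta at 215 and 227 FPKM. The intervals of mt-Ty (196 to 239 in the library labelled scramble siRNA) and mt-Ta (195 to 237) overlap, so their order is not settled. mt-Th, the histidine tRNA gene, was 184 and 186 FPKM.

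The lowest tRNA gene outside the stretch was mt-Tf, for phenylalanine, at 18.6 FPKM (13.03 to 25.8) and 14.3 FPKM (9.41 to 20.8). Of the 17 tRNA genes outside the stretch, 14 have a longer gene on both sides in the annotated order; of these 7 lay below both in mean FPKM, 4 between them and 3 above both. The other 3, mt-Tf, mt-Tt and mt-Tp, have 1 such neighbour there and lay below it. Those above both were mt-Th, mt-Ts2 and mt-Tl2, which lie between mt-Nd4 and mt-Nd5. Set against mt-Nd4 divided by its unmatched share, mt-Ts2 and mt-Tl2 were not above it. Inside the stretch, mt-Td, mt-Tk and mt-Tg had 0 reads in both libraries, which allows, at 3 reads, up to 1.51, 1.62 and 1.55 FPKM for the first library and 1.54, 1.66 and 1.59 FPKM for the second. mt-Tr had 0 and 2 reads.

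The tRNA genes known as METTL8 substrates were measured very unequally. mt-Tt was 71.3 FPKM (59.8 to 84.4, 136 reads) and 72.4 FPKM (60.7 to 85.7, 135 reads). Its ratio was 1.02 (0.794 to 1.30), and a difference within that range was not detectable at this depth. mt-Ts1, which lies in the stretch, was 4.07 FPKM (1.76 to 8.03) and 5.21 FPKM (2.50 to 9.58), from 8 and 10 reads, a ratio of 1.28 (0.454 to 3.73). mt-Ts2, the serine tRNA gene that is not a known substrate, was 168 and 161 FPKM, a ratio of 0.958 (0.807 to 1.14). None of these values is a measure of the methylation.

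Between the libraries, mitochondrial genes differed little. A mean of at least 1 FPKM was reached by 31 of the 37 genes, and 6 did not pass: mt-Nd3, mt-Nd4l, mt-Td, mt-Tk, mt-Tg and mt-Tr. On the log2(FPKM + 1) scale, which understates differences of low genes, 0 of the 31 were higher by 2-fold or more in the library labelled Mettl8 siRNA and 0 were lower by as much. Among all 13243 genes with such a mean, 0.355% were higher and 0.287% lower by that rule. The median difference was -0.035 for the 11 measured protein-coding genes, with 4 higher and 7 lower, and 0.021 for the 18 measured tRNA genes, with 12 higher and 6 lower (10 and 8 with the median log2 ratio of all genes set to 0). Over all 13243 genes it was 0.013.

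The counting interval of the ratio contained 1 for 27 of the 31 genes. It lay wholly below 1 for 3 and wholly above 1 for 1. Among all 13243 genes it lay below 1 for 7.85% and above 1 for 11.6%, and among the 6089 with at least 1000 reads over both libraries for 10.9% and 19.7%. Of the 12 mitochondrial genes with that many reads, the same 3 and 1 genes were counted. The lower genes were mt-Co1, with a ratio of 0.921 (0.910 to 0.933) and 52785 and 47538 reads, mt-Rnr1, given above, and mt-Nd5 at 0.949 (0.913 to 0.985). The higher gene was mt-Tn at 1.12 (1.003 to 1.24). With the median log2 ratio of all genes set to 0, or with nuclear protein-coding reads as the scale, 0 intervals lay above 1 and 5 (16.1%) below. Over all 13243 genes, 9.21% lay above 1 and 9.66% below in the first scaling, and 9.33% and 9.61% in the second. The interval of mt-Tn then contained 1, at 0.992 to 1.23 in the first of these scalings, and mt-Rnr2 and mt-Nd4 joined the lower genes. On the FPKM scale mt-Nd1 had a ratio of 1.00 (0.984 to 1.02), mt-Cytb of 0.999 (0.969 to 1.03), mt-Nd2 of 0.976 (0.931 to 1.02) and mt-Nd4 of 0.955 (0.903 to 1.01). In the stretch of nuclear copies the intervals were wide: mt-Co3 had a ratio of 0.810 (0.554 to 1.18) and mt-Atp6 of 1.13 (0.706 to 1.84). The spread between cultures was not measured, so none of these ratios can be set against it.

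**Figure D4:**
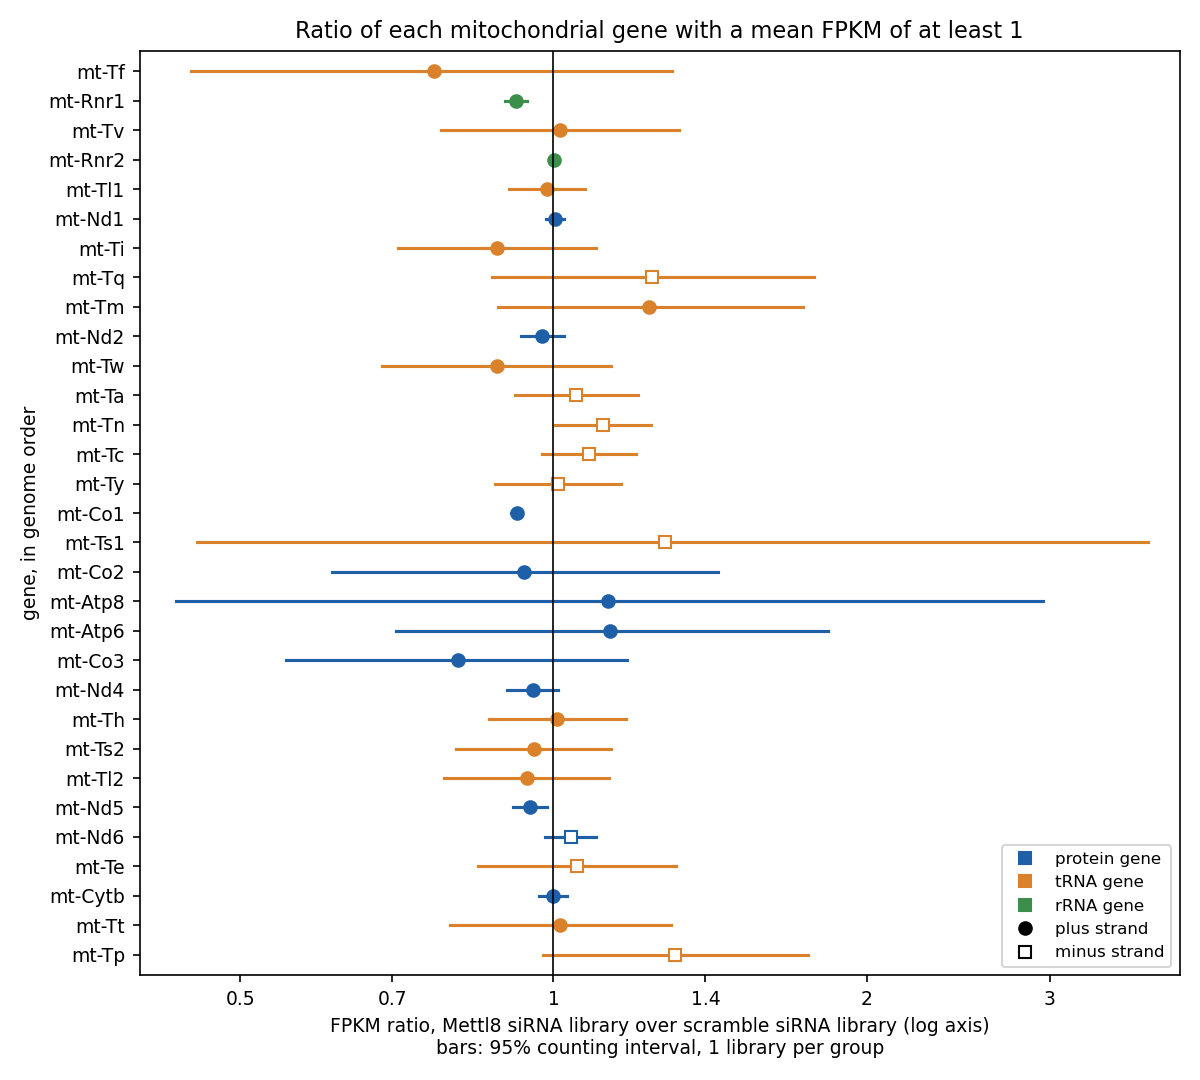
FPKM ratio (log axis) of the library labelled Mettl8 siRNA over the library labelled scramble siRNA for the 31 mitochondrial genes with a mean of at least 1 FPKM, with 95% counting intervals as bars and open squares for minus-strand genes. All 9 minus-strand genes lie above 1 on the FPKM scale, where 27 intervals contain 1; mt-Ty falls below 1 with the median log2 ratio of all genes set to 0.

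The direction of the small differences differed in count by strand, a split that was looked at after the values were seen. All 9 minus-strand genes, mt-Nd6 and 8 tRNA genes, had higher values in the library labelled Mettl8 siRNA, but 8 of their 9 intervals contained 1, among them that of mt-Ts1 with its 8 and 10 reads. Of the 22 measured plus-strand genes 8 were higher and 14 lower. Among all 13243 genes 54.1% were higher and 45.0% lower. The reads of the 8 minus-strand tRNA genes summed to 2534 and 2686, a ratio of 1.08 (1.03 to 1.15), and those of the 14 plus-strand tRNA genes to 2695 and 2572, a ratio of 0.976 (0.925 to 1.03). With the median log2 ratio of all genes set to 0, the 8 minus-strand tRNA genes had 1.07 (1.02 to 1.13). All 9 minus-strand genes then had 1.05 (1.01 to 1.09). Without mt-Tn the minus-strand tRNA ratio was 1.07 (1.01 to 1.14) on the FPKM scale. With the median log2 ratio also set to 0 it was 1.06 (0.995 to 1.13), an interval that contains 1. mt-Nd6 had a ratio of 1.04 (0.982 to 1.10), and the 12 plus-strand protein-coding genes had a summed ratio of 0.951 (0.942 to 0.960). Without mt-Co1 the latter was 0.989 (0.976 to 1.003), which contains 1, and 0.978 (0.965 to 0.992) on the rescaled values. With the median log2 ratio of all genes set to 0, mt-Ty was no longer higher, 8 of the 9 remained so, and all 9 intervals contained 1. The strand setting of the read counting is not given, so sense and antisense reads cannot be told apart, and the difference between the strands was not tested over replicates.

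Nuclear genes that copy, transcribe, cut and stabilise mitochondrial RNA and DNA were measured alongside, from a list of 42 genes of which 41 had a mean of at least 1 FPKM. Of these 31 were higher and 10 lower in the library labelled Mettl8 siRNA, with 0 at least 2-fold apart and a median difference of 0.067, beside 0.013 over all genes. Over all 13243 genes 54.1% were higher and 45.0% lower. The counting interval lay wholly above 1 for 10 genes and wholly below 1 for 0, beside 11.6% and 7.85% of all 13243 genes. With the median log2 ratio of all genes set to 0, 7 (17.1%) lay above and 0 below, beside 9.21% and 9.66%. All 10 genes above 1 on the FPKM scale were among the 29 with at least 1000 reads. Over all genes with that many reads, 19.7% lay above 1 and 10.9% below. The largest differences were those of Trmt10c, a subunit of the enzyme that cuts the leading end of mitochondrial tRNAs, Fastkd2, an RNA-binding protein of mitochondrial ribosome assembly, Mtpap, the mitochondrial poly(A) polymerase, and Tfb1m, which methylates the small-subunit rRNA. Trmt10c was 7.49 and 9.14 FPKM, a ratio of 1.22 (1.10 to 1.36), and Fastkd2 5.99 and 7.06 FPKM, a ratio of 1.18 (1.08 to 1.28). Mtpap was 7.40 and 8.62 FPKM, a ratio of 1.16 (1.04 to 1.31), and Tfb1m 6.70 and 7.67 FPKM, a ratio of 1.14 (0.963 to 1.36).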

How the data were processed

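The authors deposited FPKM values, rounded to 2 decimals, with a gene length per row, for 1 library per group. The submitters' processing notes name build mm10, the aligner STAR (2.4.0i) and the counter featureCounts (1.5.0-p1). Annotation release, strandedness and how multiply mapping reads were handled: not given in the sources used here. From these values, reads were rebuilt: 3120 of 3120 and 3561 of 3561 values below 30 reads in genes under 400 bases came out whole (tolerance: the rounding and 0.005 reads). The steps were tested on simulated data. Differences are log2(FPKM + 1), library labelled Mettl8 siRNA minus library labelled scramble siRNA, for genes with a mean of at least 1 FPKM. Levels have exact Poisson and ratios exact Clopper-Pearson intervals. Reads lack molecular identifiers, so they need not be independent molecules. Gene types, positions and sequences come from GENCODE M21 (GRCm38, the assembly of mm10), which holds 94.3% of the symbols; no genome sequence was used, so unannotated copies were not analysed here. Computations used Python 3.11.15, numpy 2.4.6, pandas 2.3.3 and scipy 1.17.1.

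Named are the 13 protein-coding and 2 rRNA genes, mt-Tt, mt-Ts1, mt-Ts2, the 6 highest tRNA genes by mean FPKM, nuclear copies with a mean of at least 1 FPKM, Mettl8 and the 4 largest differences of the machinery list. Beyond this rule, genes were named after their values were seen: mt-Tf, mt-Td, mt-Tk, mt-Tg, mt-Tr, mt-Tl2, mt-Tp and Gm28439. Members and lists were chosen with earlier results of these data known. The note fixed with the design took mt-Ts2 for a METTL8 substrate; by its anticodon this is mt-Ts1. Alternatives were another pseudocount, filters, scalings, totals and window lengths.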

Additional observations from a re-analysis of the deposited data

How the results depend on the processing

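The counts of genes at least 2-fold apart were 0 for the protein-coding, rRNA and machinery lists under each setting tried, and 0 for the tRNA genes except without a filter, where mt-Tr (0 and 2 reads) made it 1. The median difference of the protein-coding genes lay between -0.065 and -0.035 under the other pseudocount, scalings and filters, and was 0.034 when each gene was taken as a share of the reads of the 13 genes, a total in which mt-Co1 holds 55.1% and 53.2%. That of the rRNA genes was -0.075 with the median log2 ratio of all genes set to 0 and -0.074 with nuclear protein-coding reads as the scale, against -0.058 as reported. Both scalings lower every log2 ratio by 0.016, and log2(FPKM + 1) differences of low genes by less; mt-Nd1, mt-Rnr2, mt-Ty and mt-Th, with ratios near 1, then changed sign, so the direction of these 4 genes is not settled. The tRNA median stayed between 0.0050 and 0.021 and the machinery median between 0.052 and 0.075. The mitochondrial share of reads was 0.522% and 0.508% with mt-Rnr1 and mt-Rnr2 left out of both sums, an order opposite to that of the full share, and 10.4% and 10.4% of the FPKM denominator. With windows of 36 or 75 bases, as with 50, 5 genes had at least 90% of windows in nuclear transcripts. Either scaling turned the 17 higher and 14 lower mitochondrial genes into 13 and 18. Dividing by the unmatched share, counting by strand and rescaling the intervals were chosen after seeing the data. Fewer than 20 reads a library leave mt-Ts1, mt-Atp8, mt-Nd3 and mt-Nd4l, among others, without a usable ratio. No paired analysis was possible because each group has 1 library.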
